A study of Mus musculus with 21 samples.

Results

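The 8 arrays of tumour cells grown repeatedly on brain tissue were divided by passage into a late set of 4 arrays (passages P3 and P4) and an early set of 4 arrays (P1 and P2), out of 21 arrays in the series. All carry RNA of N202 cells, a line from a mammary tumour of a mouse with a rat HER-2/neu transgene driven in mammary epithelium, labelled with green fluorescent protein on histone H2B. The cells were placed on minced, revascularised brain tissue of C57BL/6 mice in dorsal skinfold chambers of nude mice for 21 days at each passage, then recovered by drug selection, sorted for fluorescence and expanded in culture before RNA was taken. P1, P2, P3 and P4 cells therefore differ both in the time spent on tissue and in the number of rounds of selection, sorting and culture, which cannot be told apart within the brain arrays. The remaining arrays hold parental cells (P0, 2 arrays), cells passaged on bone marrow or on lung tissue (P1 to P4, 1 array each), cells after 1 passage on breast tissue, and P1 and P2 cells of a second experiment on brain tissue (1 array each). Each brain passage had 2 arrays from separate cultures of the same adapted cells, the second labelled a technical replicate. The p-values given here measure the spread between such cultures and not between independent adaptations.

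Breast cancers with a high level of HER2 often spread to the brain, where tumour cells meet glia, neurons and a specialised endothelium in place of the stroma of the mammary gland. Growth in a foreign tissue is known to depend on adhesion to matrix, on supply of amino acids and glucose, on tolerance of stress in the endoplasmic reticulum and on recognition by immune cells. Comparing late with early passages asks which of these programmes were at a different level once the cells had been through the tissue several times.

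Levels are log2 units of signal per probe set, so that a difference of 1 unit is a 2-fold difference, and differences are given as late minus early. An epithelial profile was found at both stages. Of 14 mammary epithelial markers, 12 exceeded the limit of 7.33 used for measurable signal on at least 1 brain array, led by keratin 8 (Krt8), which averaged 12.80 on late and 12.77 on early arrays. Markers of brain cells were mostly under that limit: 2 of 15 for neurons (Map2, Celf4), 1 of 10 for astrocytes (Aldoc), 3 of 9 for oligodendrocytes (Mbp, Cnp, Sox10), 1 of 16 for microglia and macrophages (Cd68), 1 of 12 for endothelium (Flt1) and 0 of 13 for fibroblasts and pericytes exceeded it. Summed on the linear scale and given as log2, the levels ranged on late and on early arrays from 9.38 to 9.48 and from 9.33 to 10.11 for the neuron list, from 9.03 to 9.87 and from 8.37 to 9.49 for astrocytes, from 10.03 to 10.61 and from 10.64 to 10.88 for oligodendrocytes, from 8.63 to 9.50 and from 9.11 to 9.41 for microglia, from 8.50 to 9.24 and from 9.04 to 9.26 for endothelium, and from 8.46 to 8.90 and from 8.39 to 8.67 for fibroblasts. Celf4, Cnp, Sox10, Cd68 and Flt1 were lower and Aldoc higher in late cells, and the part of such cells in the results was not tested. Erbb2, the mouse counterpart of the transgene, measured 9.50 and 9.42 (P3) and 10.15 and 9.60 (P4), against 9.56 and 9.46 (P1) and 9.86 and 10.02 (P2). The ranges overlapped and the difference of -0.05 (SE 0.15) did not pass the test (adjusted p = 0.82).

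Late and early cells differed at many of the genes measured, and more of these were lower than higher in late cells. Of 7301 genes with a measurable signal, 797 were higher (10.9%) and 1214 lower (16.6%) in late than in early passages at an adjusted p under 0.05. The 4 late arrays lay wholly above the 4 early arrays for 687 genes (9.41%) and wholly below them for 1128 genes (15.4%). Most calls were moderate. At least 2-fold differences were found for 231 of the higher and 318 of the lower genes, at least 8-fold differences for 21 and 12, and at least 16-fold differences for 7 and 4. The mean of the low stage was under the limit of 7.33 for 43.3% of the higher and 39.3% of the lower genes, whose fold differences rest on a signal near background on that side. The median difference over all genes was -0.10, and with the array medians set equal the higher genes made up 49.4% of calls, against 39.6% as deposited.

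The arrays of a stage were on the whole closer to each other than to those of the other stage, with overlapping ranges. The median absolute difference between 2 arrays, over all genes, was 0.289 to 0.449 (median 0.391) for the 16 pairs of a late and an early array, 0.269 to 0.346 (median 0.308) for pairs of the 2 late passages, 0.27 to 0.307 (median 0.299) for pairs of the 2 early passages, and 0.175 to 0.255 for the 2 cultures of 1 passage. The parental arrays were at a median distance of 0.284 from late arrays and 0.314 from early arrays. The direction was shared by all 4 pairings of a late with an early passage for 733 of the 797 higher and 1130 of the 1214 lower genes. The calls rest on the mean of these same 4 differences, so that the selection favours a shared direction. The share over all genes was not taken.

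The number of genes called depended on what was taken as the unit of replication. With passage as a random block, so that the 2 cultures of 1 passage count as related, 266 genes were higher and 346 lower, and with each passage as a single value, 2 against 2, 55 were higher and 57 lower. Leaving out P2 gave 395 higher and 476 lower genes. The first arrays alone called 84 and 69 genes and the technical replicate arrays alone called 7 and 8 (limma, 1285 genes at an unadjusted p under 0.05 for the second set), with 2 arrays a stage in each.

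The 10 highest differences ranged from 3.52 for Kdelr3 to 5.05 for Col8a1. Col8a1, a short-chain collagen of basement membranes and vessel walls, measured 10.39 and 10.51 (P3) and 10.88 and 10.29 (P4), against 5.58 and 6.08 (P1) and 4.84 and 5.35 (P2). The late arrays were near the parental mean of 9.96 and the early arrays were all under the limit, a difference of 5.05 (SE 0.19, adjusted p = 2.24e-06, 33.2-fold). Timp3, a matrix-bound inhibitor of metalloproteinases, measured 9.72 and 9.61 (P3) and 10.09 and 9.70 (P4), against 5.10 and 5.50 (P1) and 4.83 and 5.28 (P2), with 10.46 in parental cells. Both genes were thus low in the early passages alone among the P0 to P4 cells. Has2, which makes hyaluronan, measured 9.44 and 9.21 (P3) and 7.36 and 7.63 (P4), against 3.80 and 4.16 (P1) and 3.87 and 4.14 (P2). P3 exceeded P4 in both cultures, and all late arrays exceeded all early arrays (difference 4.42, SE 0.39). Lgals1, a galactose-binding lectin of cell adhesion, stayed well above the limit at both stages, at 12.88 ± 0.22 in late and 8.67 ± 0.49 in early cells (SD, n = 4 each, 18.5-fold). Crip2, a LIM-domain protein, reached 10.72 ± 0.16 in late and 7.04 ± 1.03 in early cells, with P2 above P1 at 7.64 and 8.11 against 6.54 and 5.85. The small heat shock protein Hspb8 reached 8.91 ± 0.25 in late and 5.23 ± 0.32 in early cells, and Kdelr3, a receptor that returns proteins to the endoplasmic reticulum, reached 7.91 ± 0.52 in late and 4.38 ± 0.39 in early cells. Rbp7, a retinol-binding protein, is one of few among them that was also low in parental cells (4.88): it measured 8.46 and 8.49 (P3) and 9.37 and 10.04 (P4), against 5.12 and 5.07 (P1) and 4.82 and 4.50 (P2). Dynap, a membrane protein of the dynactin-associated family, measured 8.85 ± 0.63 in late and 4.30 ± 0.39 in early cells.

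The probe set that the platform annotation names Kcnma1, a large-conductance potassium channel, was also among the highest, but its identity is uncertain. It measured 13.25 and 13.19 (P3) and 13.58 and 13.38 (P4), against 10.31 and 11.55 (P1) and 7.01 and 5.12 (P2), with 5.06 in parental cells. Late arrays were uniform and early arrays were not, the P2 arrays being far under the P1 arrays. The other Kcnma1 probe set lay between 3.40 and 4.15 on all 8 arrays, with a difference of -0.07. That second probe set sits by its number among probe sets of chromosome 14, where Kcnma1 lies, whereas the one that changed sits among probe sets of chromosome 8. Of 7298 genes with a chromosome, 239 had a probe set placed among those of another chromosome in this way, 26 of them called higher and 22 called lower. Among genes named below, this holds for Etv1, Etv5, Ftl1 and Pgam1, whose identity is uncertain too. Etv5 and Etv1 each had another probe set placed on the chromosome of the gene. It differed by -0.91 for Etv5, against -1.06 for the one used, and by -0.63 for Etv1, against -1.73. Ftl1 and Pgam1 had no other probe set of that name.

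**Figure D1:**
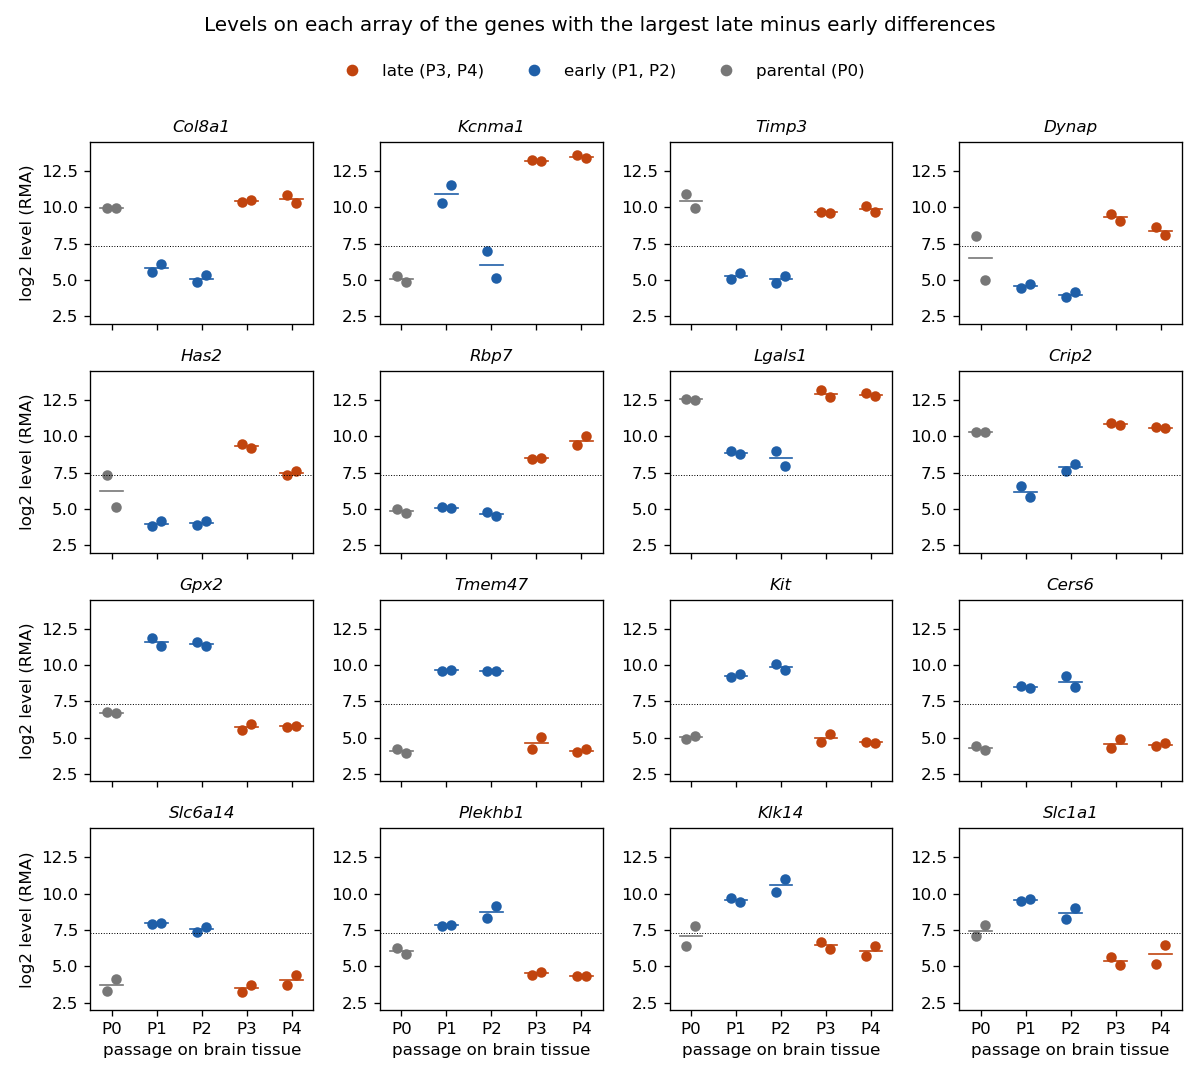
Log2 level on each brain array (points) and mean of each passage (bars) for the 8 genes with the highest and the 8 with the lowest late minus early differences, over P0 to P4. The dotted line marks the limit of 7.33. Gpx2, Tmem47, Kit and Cers6 were over the limit in P1 and P2 only, and Col8a1 and Timp3 were under it in P1 and P2 only. The panel named Kcnma1 shows a probe set of uncertain identity.

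The lowest differences were in genes with an early mean over the limit, by the least for Slc6a14, and most of them were near or under it in parental cells. Gpx2, an epithelial glutathione peroxidase, measured 5.51 and 5.93 (P3) and 5.73 and 5.83 (P4), against 11.88 and 11.28 (P1) and 11.57 and 11.34 (P2). With a parental mean of 6.71, it was high on the 4 early arrays alone, and the difference was -5.77 (SE 0.17, adjusted p = 9.31e-07, 54.5-fold). Tmem47, a membrane protein of cell junctions, measured 4.20 and 5.04 (P3) and 4.03 and 4.19 (P4), against 9.62 and 9.68 (P1) and 9.56 and 9.58 (P2). Kit, the receptor of stem cell factor and a marker of luminal progenitors, measured 4.68 and 5.26 (P3) and 4.70 and 4.65 (P4), against 9.15 and 9.39 (P1) and 10.07 and 9.67 (P2). Parental cells were at 4.08 for Tmem47 and 5.02 for Kit, so that for both genes the late cells were near the parental level. Cers6, a ceramide synthase, averaged 4.55 ± 0.26 in late and 8.67 ± 0.38 in early cells. Plekhb1 averaged 4.45 ± 0.14 in late and 8.28 ± 0.64 in early cells. The amino acid carrier Slc6a14 averaged 3.78 ± 0.48 in late and 7.76 ± 0.27 in early cells, and the glutamate carrier Slc1a1 averaged 5.61 ± 0.63 in late and 9.11 ± 0.61 in early cells. The secreted proteases Klk14 and Prss12 fell by 3.80 and 3.18, and the collectin Sftpd, which binds microbial sugars, fell by 3.46. For each of these 10 genes all late arrays were under all early arrays, and all late means were under the limit.

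Genes were next read in 27 lists by function, 26 of them of general processes and 1 taken from the genes the study discussed. Members of several lists ran nearly all one way, and for some of these the early level came from P2 alone. In the main fit, shares of called members are to be read against 10.9% higher and 16.6% lower over all genes. These shares do not hold for the counts given under other settings, where the calls over all genes changed too. Of the 7301 genes, 266 were higher and 346 lower with passage as a random block, and 55 and 57 with passage means. Without P2 the counts over all genes were 395 and 476. The counts of most lists were smaller with passage as a random block (estimated correlation 0.295), and the larger changes of this kind, or with 1 array left out, are given beside the lists.

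**Figure D2:**
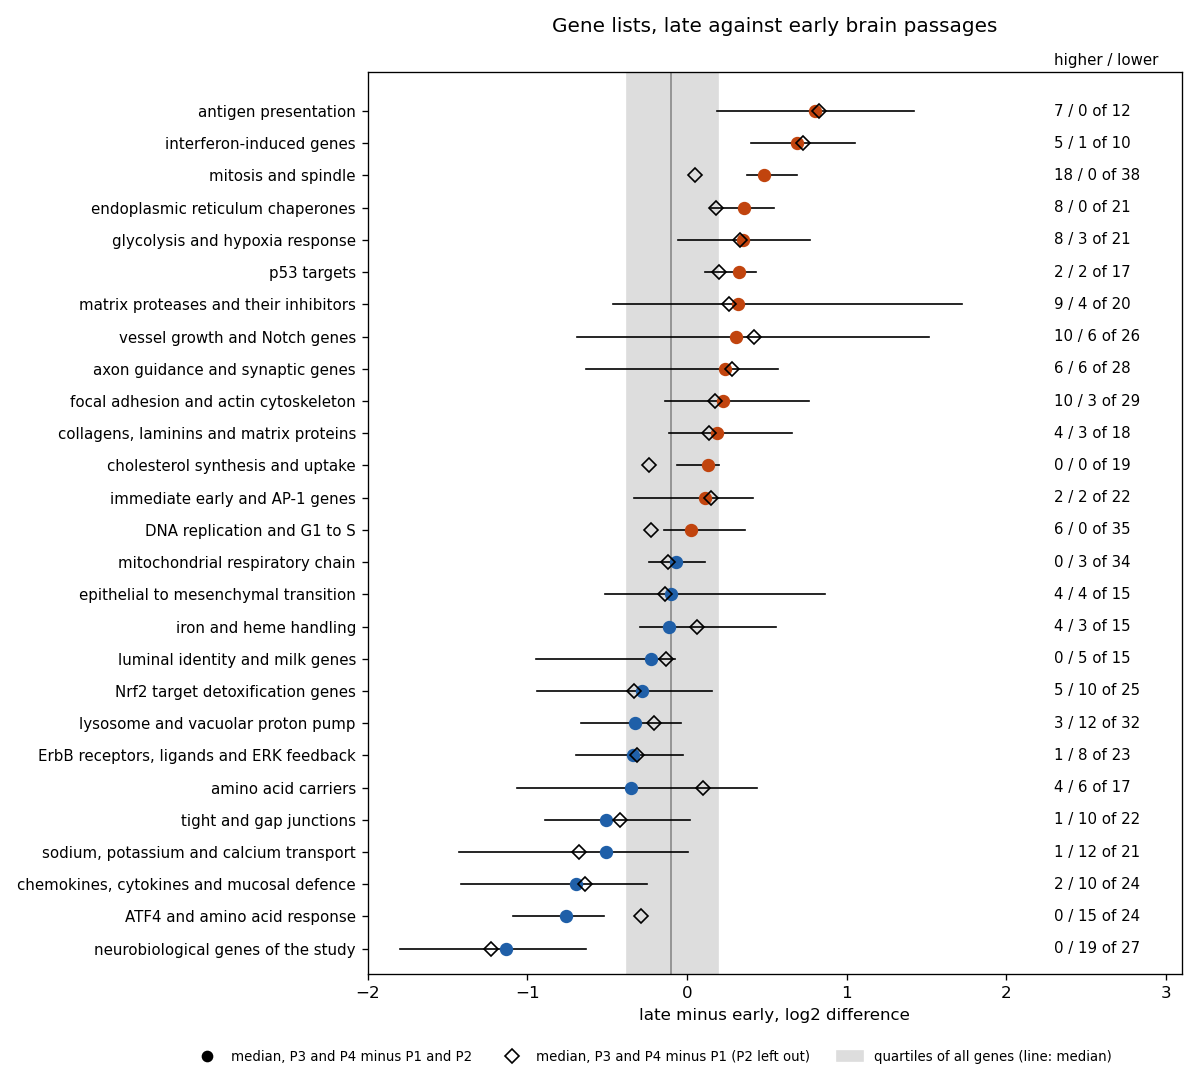
Median late minus early log2 difference of each gene list (filled circles) with its quartiles (lines), the same median with P2 left out (open diamonds), and the number of members called higher and lower of those measured. The grey band spans the quartiles of all genes, -0.38 to 0.19. Medians of the mitosis and ATF4 lists move towards the line of all genes without P2, whereas that of the antigen presentation list does not. The median of the neurobiological list does not either, but its genes were chosen by the study as raised at P1, which favours this outcome.

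Genes of mitosis were higher in late cells. Of 38 measured, 18 were higher (47.4%, against 10.9% of all genes) and 0 lower (limma, 28 and 0 at an unadjusted p under 0.05), with a median of 0.48, and all 38 differences were positive. Cdc20, the activator of the anaphase-promoting complex, measured 9.67 and 9.82 (P3) and 9.49 and 9.79 (P4), against 8.55 and 8.61 (P1) and 8.24 and 7.22 (P2). All late arrays exceeded all early arrays, by 1.54 in the mean (SE 0.21, adjusted p = 0.00148). Bub1, a kinase of the spindle checkpoint, measured 9.36 and 9.06 (P3) and 8.92 and 9.06 (P4), against 8.76 and 8.94 (P1) and 7.54 and 7.46 (P2). Here P1 overlapped the late arrays and P2 alone was low. Cdca8 of the chromosomal passenger complex differed by 1.49 and the microtubule depolymerase Kif2c by 1.10. Without P2 the list had 3 higher members, and its median was 0.05; without P1 it had 31 higher members. With passage as a random block 3 of the 38 were higher, against 266 of all 7301 genes, and with passage means 0, against 55 of all genes. Leaving out 1 array brought the list count to 11 (P1 replicate 1) or 10 (P1 replicate 2 or P2 replicate 2). In DNA replication, 6 of 35 genes were higher (17.1%, against 10.9% of all genes) and 0 lower (limma, 8 and 1 at an unadjusted p under 0.05), with a median of 0.02. Among them were Ccne2, the cyclin of entry into S phase (1.21), and Rrm2, a subunit of ribonucleotide reductase (0.80). The count was 3 without P2 replicate 2. Without P2, and with passage as a random block, none of the 35 was called in either direction, and without P2 the median was -0.23.

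The promoters of the mitosis genes are shown because the list moved together and shares sequence features that the choice of genes did not use. The cell cycle homology region (TTTGAA or TTCGAA on either strand, the second being its own reverse complement) and the CCAAT box (CCAAT on either strand) are elements of promoters that are active in G2 and mitosis. In RefSeq promoter sequences on GRCm38.p6, the first was found for 27 of the 32 list members with a sequence (84.4%), against 19.4% of 27025 promoters, and the second for 25 of 32 (78.1%), against 37.9%. Neither motif contains the other. The bases before the start of Cdc20 (chr4:118437344-118437413, minus strand) and of Bub1 (chr2:127831880-127831939, minus strand) read as follows, 5′ to 3′, with the motifs in capitals.
Cdc20: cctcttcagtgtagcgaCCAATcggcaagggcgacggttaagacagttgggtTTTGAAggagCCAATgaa
Bub1: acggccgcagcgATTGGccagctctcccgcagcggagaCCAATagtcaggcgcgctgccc
Cdc20 holds both motifs within 70 bases, and Bub1 holds a CCAAT box on each strand in the stretch shown. The share with the cell cycle motif was 13 of 14 for members called higher and 14 of 18 for those not called.

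Genes of the amino acid response were lower in late cells, and these too were highest in P2. ATF4 is the transcription factor that raises amino acid synthesis, transport and charging of transfer RNA when the kinase GCN2 or PERK halts general translation. Of 24 genes measured, 0 were higher and 15 lower (62.5%, against 16.6% of all genes; limma, 0 and 20 at an unadjusted p under 0.05), with a median of -0.76. Asns, asparagine synthetase, measured 10.21 and 9.59 (P3) and 9.29 and 9.25 (P4), against 10.68 and 10.60 (P1) and 11.90 and 11.81 (P2). The groups did not overlap, the P2 arrays were highest, and the difference was -1.66 (SE 0.20, adjusted p = 0.000772, 3.16-fold). Aldh1l2, a mitochondrial enzyme of folate metabolism, measured 5.44 and 6.40 (P3) and 5.68 and 6.08 (P4), against 6.96 and 6.66 (P1) and 8.33 and 8.74 (P2). Chac1, which degrades glutathione, overlapped between stages, since P4 measured 6.71 and 7.09 and P1 measured 7.72 and 7.08, and only P2, at 9.38 and 8.84, stood clear. The inhibitory kinase relative Trib3 fell by 1.56, the stress factor Ddit3 by 1.30, the folate enzyme Mthfd2 by 1.06 and the cystine carrier Slc7a11 by 1.06. Without P2, 2 members were lower and the median was -0.29. With passage as a random block 2 members were lower, with passage means 0, and without P1 replicate 1 there were 9. In the second brain experiment it was the P1 array that was high, with a list median of 1.64 over parental cells, against 0.12 for its P2 array.

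The motif TGATGNAA, the core of the element that ATF4 binds with a C/EBP partner, was searched on both strands after the values of the list had been seen. It was present in 9 of 21 list promoters (42.9%), in 8 of the 12 called lower and 1 of the 9 not called, against 4.06% of all promoters. Stretches with the motif in capitals are shown for Asns (chr6:7693210-7693269, minus strand) and Atf3 (chr1:191183409-191183468, minus strand), and, chosen after their values were seen, for Slc7a11 (chr3:50443644-50443703, minus strand) and Chac1 (chr2:119351027-119351086, plus strand).
Asns: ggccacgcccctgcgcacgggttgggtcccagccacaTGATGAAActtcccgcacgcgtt
Atf3: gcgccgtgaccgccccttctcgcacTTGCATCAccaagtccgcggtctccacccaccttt
Slc7a11: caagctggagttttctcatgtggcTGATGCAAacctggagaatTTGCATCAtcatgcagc
Chac1: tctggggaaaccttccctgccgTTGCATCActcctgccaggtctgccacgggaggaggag
Slc7a11 holds a copy on each strand, and Atf3 and Chac1 hold the same 8 letters on the reverse strand. The call of Atf3 (-0.76) was lost in 15 of 27 alternative settings, among them those without P2 and with chromosome medians subtracted. A match is a description of the letters and not of binding.

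Chaperones of the endoplasmic reticulum ran opposite to the ATF4 list. Of 21 measured, 8 were higher (38.1%, against 10.9% of all genes) and 0 lower (limma, 10 and 1 at an unadjusted p under 0.05), with a median of 0.36. Dnajc3, a co-chaperone that restrains PERK, measured 8.96 and 8.71 (P3) and 8.60 and 8.33 (P4), against 7.77 and 7.63 (P1) and 7.23 and 7.60 (P2). Pdia6, a protein disulfide isomerase, averaged 10.18 ± 0.19 in late and 9.10 ± 0.45 in early cells. All late arrays exceeded all early arrays for both genes. Herpud1, of the degradation machinery of the same organelle, is counted with the ATF4 list and fell by 1.17. Without P2, and with passage as a random block, 3 chaperones were higher. The count was 4 without P1 replicate 2 or P2 replicate 2, and 5 without P2 replicate 1 or P4 replicate 2.

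Carriers of amino acids split between directions. Of 17 measured, 4 were higher (23.5%, against 10.9% of all genes) and 6 lower (35.3%, against 16.6%), and with passage as a random block 3 were higher and 3 lower. The list median was -0.35, and 0.10 without P2. Slc38a1, a glutamine carrier, measured 7.28 and 6.90 (P3) and 3.98 and 3.97 (P4), against 8.41 and 8.24 (P1) and 8.29 and 8.06 (P2). Its loss was thus largely between P3 and P4, by -3.12 (adjusted p = 0.00058). Slc7a5, the light chain of the large neutral amino acid carrier, averaged 10.80 ± 0.26 in late and 12.35 ± 0.49 in early cells. Its heavy chain Slc3a2 averaged 11.40 ± 0.28 in late and 12.35 ± 0.45 in early cells. In the other direction, Slc1a5, which imports glutamine, measured 8.93 and 8.48 (P3) and 8.23 and 7.57 (P4), against 6.90 and 6.60 (P1) and 6.53 and 6.16 (P2), and Slc7a7, the light chain of a carrier of basic amino acids, was higher by 1.66.

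Transport of sodium, potassium and calcium was lower in late cells. Of 21 genes, 12 were lower (57.1%, against 16.6% of all genes) and 1 higher, the uncertain Kcnma1 probe set, with a median of -0.51. Atp1b1, the regulatory subunit of the sodium pump, measured 8.49 and 8.33 (P3) and 8.28 and 8.11 (P4), against 11.48 and 11.33 (P1) and 11.61 and 11.43 (P2). The parental mean of 9.57 lay between, and the difference was -3.16 (SE 0.16, adjusted p = 8.14e-06, 8.93-fold). Kcnn4, a calcium-activated potassium channel, measured 10.28 and 10.21 (P3) and 9.24 and 8.99 (P4), against 11.11 and 10.76 (P1) and 11.36 and 11.19 (P2). The phosphate carrier Slc34a2 fell by 2.71, the kinase Wnk2 by 1.76 and the myo-inositol carrier Slc5a3 by 1.63. Without P2, 11 of the 21 were lower.

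Subunits of the vacuolar proton pump and proteins of the lysosome were lower for 12 of 32 (37.5%, against 16.6% of all genes) and higher for 3 (9.38%, against 10.9%). With passage as a random block 4 were lower and 0 higher, and without P3 6 were lower. Atp6v0a1 measured 9.09 and 9.11 (P3) and 8.09 and 8.31 (P4), against 10.49 and 10.26 (P1) and 10.84 and 10.60 (P2). Its paralogue Tcirg1, which takes the same place in the pump, was higher, at 8.82 and 8.87 (P3) and 9.97 and 9.62 (P4), against 8.16 and 7.86 (P1) and 8.24 and 8.62 (P2). The stages did not overlap for either paralogue, and the differences were -1.89 (SE 0.15) and 1.10 (SE 0.15). Another paralogue, Atp6v0a4, was lower by the test but overlapped between stages, with P3 at 5.26 and 5.27 and P4 at 7.10 and 6.90. Atp6v0b, another subunit of the membrane part of the pump, averaged 10.05 ± 0.30 in late and 9.30 ± 0.18 in early cells. Its call was lost in 9 of 27 alternative settings, among them the subtraction of chromosome medians. Of 15 iron genes, 4 were higher (26.7%, against 10.9% of all genes) and 3 lower (20%, against 16.6%). These counts were 2 and 1 without P1 replicate 1, 2 and 2 without P1 replicate 2, P2 replicate 2 or P3 replicate 2, and 1 and 1 with passage as a random block. The probe set named for the ferritin light chain, Ftl1, which is of uncertain identity, was higher by 1.71, with the iron-oxidising ceruloplasmin gene Cp at 11.57 ± 0.24 in late and 10.45 ± 0.75 in early cells and the ferrireductase Steap2 at 7.07 ± 0.35 in late and 8.63 ± 0.54 in early cells.

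Genes of antigen presentation were higher in late cells. Their median difference from parental cells was -0.70 in P3 and 0.04 in P4, which was not tested for the list. Peptides for class I molecules are cut by the immunoproteasome and carried into the endoplasmic reticulum by the Tap transporter. Of 12 genes measured, 7 were higher (58.3%, against 10.9% of all genes) and 0 lower (limma, 7 and 0 at an unadjusted p under 0.05), with a median of 0.80. Psmb8, a catalytic subunit of the immunoproteasome, measured 7.53 and 7.48 (P3) and 8.50 and 8.42 (P4), against 5.63 and 4.30 (P1) and 5.24 and 5.02 (P2). The parental mean was 8.32, so that the early cells were low and the P4 cells near the parental level. Tap2 measured 7.45 and 7.51 (P3) and 8.06 and 7.78 (P4), against 6.29 and 5.78 (P1) and 6.04 and 6.15 (P2), and the class I gene H2-Q4 7.64 and 7.47 (P3) and 8.55 and 8.36 (P4), against 6.30 and 6.39 (P1) and 6.56 and 7.12 (P2). Class I genes are near-identical copies, so that the share of each in this signal is uncertain. Of 10 genes induced by interferon, 5 were higher (50%, against 10.9% of all genes) and 1 lower, and 3 and 0 with passage as a random block. The higher genes included Usp18, which restrains interferon signalling, at 7.26 ± 0.28 in late and 5.06 ± 0.23 in early cells. Oasl2 measured 6.16 and 6.10 (P3) and 7.36 and 7.32 (P4), against 5.33 and 4.42 (P1) and 5.34 and 5.42 (P2). Ifi35 was the lower member (-0.60), a call lost in 18 of 27 alternative settings, among them those that left out any 1 array other than P3 replicate 1. Without P2, 6 of 12 and 5 of 10 were higher. The core of the interferon response element, GAAANNGAA on either strand, was in 3 of 9 promoters of the antigen list, against 8.57% of all promoters. It was in 1 of the 6 called higher and in 2 of the 3 not called. In the interferon list it was in 1 of 5 promoters, all 5 being of called members.

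Chemokines and genes of mucosal defence went the other way, with 10 of 24 lower (41.7%, against 16.6% of all genes), 2 higher (8.33%, against 10.9%) and a median of -0.69. Sirpa, the receptor of the signal carried by CD47, measured 5.72 and 6.02 (P3) and 6.47 and 6.46 (P4), against 9.16 and 9.20 (P1) and 9.06 and 8.91 (P2). The alarmin Il33 measured 5.52 and 5.89 (P3) and 4.27 and 5.37 (P4), against 7.10 and 7.07 (P1) and 7.90 and 8.87 (P2). No late array reached an early array for either gene. Ccl20, which attracts cells with the receptor CCR6, fell by 1.88 and the p19 chain of interleukin 23, Il23a, by 1.63. The pattern receptor Tlr2 was higher by 1.64, through P4 at 10.10 and 9.53, whereas P3 at 7.49 and 7.92 overlapped P1 at 7.82 and 7.10. Wfdc2, a secreted protein of mucosal surfaces, was the other higher member, at 11.12 ± 0.13 in late and 10.29 ± 0.20 in early cells.

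Proteases, adhesion and matrix changed in both directions. Of 20 proteases and inhibitors, 9 were higher (45%, against 10.9% of all genes) and 4 lower (20%, against 16.6%). Plau, the urokinase that activates plasminogen, measured 10.14 and 10.66 (P3) and 8.84 and 8.29 (P4), against 7.02 and 6.44 (P1) and 5.96 and 5.54 (P2). The second plasminogen activator, Plat, measured 7.66 and 7.55 (P3) and 7.99 and 7.73 (P4), against 6.72 and 6.12 (P1) and 5.18 and 5.34 (P2). Both activators were thus higher on every late array. Adamts9, a protease of matrix proteoglycans, fell by 1.14, with all late arrays under all early arrays. Of 29 genes of focal adhesions and actin, 10 were higher (34.5%, against 10.9% of all genes) and 3 lower (10.3%, against 16.6%), and 6 and 1 with passage as a random block. Tns4, a tensin without the actin-binding part, measured 11.53 and 11.22 (P3) and 11.12 and 10.53 (P4), against 6.17 and 5.51 (P1) and 9.49 and 9.46 (P2), so that only P1 was far under the parental mean of 10.99. Itgb6, the integrin chain that frees TGF-beta from its latent form, averaged 8.54 ± 0.24 in late and 6.16 ± 0.11 in early cells. The talin-binding vinculin gene Vcl was higher by 1.07, and the collagen-binding integrin chain Itga2 and the actin-binding protein Lima1 fell by 1.14 and 0.99. Of 18 matrix genes 4 were higher (22.2%, against 10.9% of all genes) and 3 lower (16.7%, against 16.6%), and 2 and 2 with passage as a random block. They include Tnc, a glycoprotein of remodelled matrix, higher by 1.47 at levels under the limit, Sparc, which binds collagen, lower by 2.05, and the laminin chain Lama3, at 6.58 ± 0.33 in late and 7.87 ± 0.46 in early cells.

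The markers of an epithelial to mesenchymal transition gave no common direction, with 4 higher (26.7%, against 10.9% of all genes) and 4 lower (26.7%, against 16.6%) of 15. Snai1, a repressor of E-cadherin, measured 8.54 and 8.65 (P3) and 9.11 and 8.12 (P4), against 7.02 and 6.10 (P1) and 6.28 and 6.50 (P2). S100a4, a calcium-binding protein of motile cells, averaged 9.06 ± 0.74 in late and 6.41 ± 1.48 in early cells, with P1 at 7.47 and 7.89 and P2 at 5.35 and 4.95. Tgfb2, a growth factor that can drive this transition, averaged 8.25 ± 0.41 in late and 10.09 ± 0.28 in early cells. Cdh1, the E-cadherin gene, averaged 10.73 in late and 10.83 in early cells and was not called. Junction genes were lower for 10 of 22 (45.5%, against 16.6% of all genes) and higher for 1 (4.55%, against 10.9%). The lower count was 6 without P1 replicate 1 or P4 replicate 2 and with passage as a random block. The lower genes included claudin 1 (Cldn1) at 8.49 ± 0.24 in late and 10.10 ± 0.14 in early cells, occludin (Ocln) at 7.04 ± 0.28 in late and 7.95 ± 0.22 in early cells, and connexin gene Gjb2 at 3.95 ± 0.28 in late and 6.85 ± 1.00 in early cells. Gja1, the most widespread connexin, was the higher member, by 0.56, a call lost in 15 of 27 alternative settings. Without P2, 5 junction genes were lower. Of 15 luminal and milk genes 5 were lower (33.3%, against 16.6% of all genes) and 0 higher (limma, 6 and 0 at an unadjusted p under 0.05). The lower count was 3 without P1 replicate 2 and 2 with passage as a random block. It was led by Kit, with claudin 3 (Cldn3) falling by 0.85 and the luminal factor Elf5 by 1.04. The milk protein gene Csn3 was high mainly on 1 culture of P2, at 10.38, against 6.94 on the other.

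Targets of Nrf2, the factor that answers oxidative stress, were lower for 10 of 25 (40%, against 16.6% of all genes) and higher for 5 (20%, against 10.9%). These counts were 5 and 4 without P1 replicate 1, 6 and 3 without P1 replicate 2, 8 and 3 without P2 replicate 1, and 3 and 2 with passage as a random block. The lower ones included Gpx2, described above, the glutathione transferase Gsta3 at 5.41 ± 0.35 in late and 7.07 ± 0.84 in early cells, the glutathione synthesis subunit Gclm (-0.77) and heme oxygenase Hmox1 (-0.94). The higher ones were led by the aldo-keto reductase Akr1b8, at 8.29 and 8.29 (P3) and 6.48 and 6.47 (P4), against 4.28 and 4.74 (P1) and 3.60 and 4.28 (P2), and the aldehyde dehydrogenase Aldh3a1, at 6.77 and 8.85 (P3) and 6.79 and 7.64 (P4), against 4.67 and 4.50 (P1) and 5.24 and 5.08 (P2). The members of the list thus did not move as one. Their promoters held TGACNNNGC, the core of the antioxidant response element, in 7 of 19 cases (36.8%), against 12.5% of all promoters.

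A list of ErbB receptors, their ligands and feedback regulators of ERK, the kinase downstream of them, had 8 of 23 lower (34.8%, against 16.6% of all genes) and 1 higher (4.35%, against 10.9%). The lower count was 5 without P1 replicate 1 or P4 replicate 2, and 2 with passage as a random block. One of the lower members is a ligand, Nrg1 (-1.01). Phlda1 measured 8.83 and 8.86 (P3) and 9.03 and 8.59 (P4), against 9.79 and 9.40 (P1) and 10.38 and 10.73 (P2). The probe sets named for the ETS factors Etv5 and Etv1, which ERK signalling induces, are of uncertain identity and fell by 1.06 and 1.73. The inhibitors Spred2 and Spred1 fell by 0.94 and 0.66. Errfi1, which binds and inhibits the ErbB kinases, was the higher member, at 12.06 and 11.92 (P3) and 11.41 and 11.22 (P4), against 10.36 and 10.12 (P1) and 10.03 and 10.11 (P2). Without P2, 2 members were lower. Glycolysis and hypoxia genes were higher for 8 of 21 (38.1%, against 10.9% of all genes) and lower for 3 (14.3%, against 16.6%). The higher count was 5 without P1 replicate 1, P2 replicate 1 or P4 replicate 1, and 4 with passage as a random block. The list held Ndrg1, a stress-induced protein, at 9.65 ± 0.35 in late and 6.64 ± 0.66 in early cells, the glucose carrier Slc2a1 (0.77), P4ha1, which hydroxylates collagen (1.51), and the probe set named for the glycolytic enzyme Pgam1 (0.97), of uncertain identity. The phosphofructokinase Pfkp was lower, at 9.14 ± 0.21 in late and 10.15 ± 0.12 in early cells. Vegfa, the main growth factor of vessels, measured 7.87 and 7.50 (P3) and 7.22 and 7.08 (P4), against 7.38 and 7.34 (P1) and 8.95 and 8.85 (P2). Only P2 was high for Vegfa, and without P2 its difference turned to 0.06.

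The 27 measured genes of the study with a role in nerve cells were chosen by its authors on these arrays as genes raised at P1, so that the absence of higher members follows from the choice, and their count is no independent sign of a direction. The genes that the study lists as lowered at P1 were left out. Of those, Nrp1, Plau, Jun, Tlr2 and Lgals1 were among the genes higher in late cells, a direction that the same choice favours. Others of them went the other way or were not called. Sema7a was lower in late cells (1.65-fold), as was the uncertain Etv1 probe set (3.32-fold), and Erbb2 was not called. The study lists Sema7a and Etv1 among the genes raised at P1 on brain as well, so that their direction there is ambiguous. Of the 27, 19 were lower (70.4%, against 16.6% of all genes) and 0 higher (limma, 22 and 0 at an unadjusted p under 0.05), with a median of -1.14. With passage as a random block 13 were lower. Maoa, which oxidises monoamine transmitters, measured 5.84 and 5.88 (P3) and 4.04 and 4.36 (P4), against 8.02 and 8.40 (P1) and 7.17 and 7.53 (P2). Chrm3, a muscarinic receptor, measured 5.73 and 5.63 (P3) and 5.43 and 4.99 (P4), against 7.56 and 7.51 (P1) and 8.10 and 7.97 (P2). The late arrays were under the early arrays for both genes and under the limit. The parental means were 6.19 and 5.77. The list had 18 lower members without P2, and 16 lower and 1 higher without P1. Axon guidance genes, a list of general knowledge, ran both ways, with 6 higher (21.4%, against 10.9% of all genes) and 6 lower (21.4%, against 16.6%) of 28, and 3 and 3 with passage as a random block. Nrp1, a receptor for semaphorins and vessel growth factors, measured 8.57 and 8.85 (P3) and 8.18 and 8.36 (P4), against 6.55 and 6.81 (P1) and 5.75 and 5.74 (P2). The netrin receptor Unc5b was higher by 2.40, and the guidance ligand Slit2 and the ephrin receptor Epha4 fell by 2.81 and 2.29. Vessel and Notch genes were higher for 10 of 26 (38.5%, against 10.9% of all genes) and lower for 6 (23.1%, against 16.6%), and 8 and 2 with passage as a random block. They include the platelet-derived factor Pdgfb at 10.11 ± 0.47 in late and 8.04 ± 0.25 in early cells, the planar polarity gene Vangl2 at 4.96 ± 0.16 in late and 6.93 ± 0.59 in early cells, and the Wnt receptor Fzd2 at 6.93 ± 0.27 in late and 8.42 ± 0.40 in early cells.

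4 lists had few calls. The immediate early genes had 2 higher and 2 lower of 22 (9.09% each) and the p53 targets 2 higher and 2 lower of 17 (11.8% each), against 10.9% and 16.6% of all genes. Leaving out 1 array gave 1 to 3 higher and 1 to 4 lower immediate early genes and 1 to 3 higher and 1 to 2 lower p53 targets. The respiratory chain had 3 lower (8.82%) and 0 higher of 34 (limma, 6 and 2 at an unadjusted p under 0.05), under the shares of all genes in both directions. Genes of cholesterol synthesis had 0 called of 19 in either direction (limma, 0 at an unadjusted p under 0.05), also under those shares. Among the few calls, Jun measured 9.12 ± 0.38 in late and 7.80 ± 0.28 in early cells, and Gadd45a was high in P2 alone, at 9.30 and 8.64, against 6.67 and 6.30 in P1. The nuclear receptor Nr4a2 averaged 7.43 ± 0.51 in late and 8.70 ± 0.75 in early cells, and the factor Klf4 was higher by 0.64 at levels under the limit. The death receptor Tnfrsf10b averaged 9.79 ± 0.31 in late and 8.93 ± 0.44 in early cells. The ephrin receptor Epha2 (0.72) and the glycolysis regulator Tigar (-0.56) were called but overlapped between stages, and the calls of Klf4, Epha2 and Tigar were lost without any of several single arrays. Of the respiratory chain, Uqcrfs1 of complex III averaged 6.90 ± 0.26 in late and 7.76 ± 0.29 in early cells, and Ndufs1 of complex I averaged 7.61 ± 0.33 in late and 8.38 ± 0.10 in early cells.

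**Figure D3:**
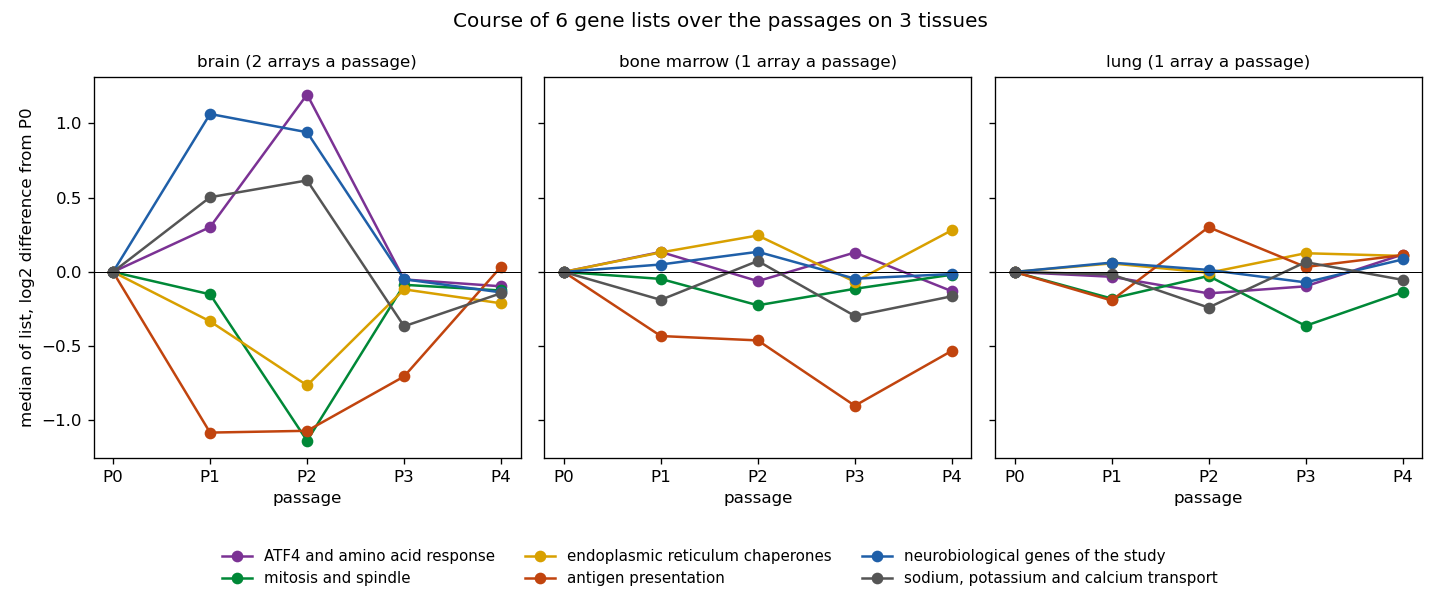
Median log2 difference from parental cells of 6 gene lists over P0 to P4 on brain (left, 2 arrays a passage), bone marrow (middle) and lung (right, 1 array a passage each). On brain the mitosis list is at -1.14 in P2 and near -0.1 in P3 and P4, and the ATF4 list is at 1.20 in P2. The antigen presentation list is at -1.08 in P1 and -1.07 in P2.

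Passages within a stage were compared with 2 arrays against 2, so that the counts cannot be set against those between stages, which rest on 4 against 4. P2 against P1 called 137 genes (1.88%), 72 higher and 65 lower, and P4 against P3 called 46 genes (0.630%), 17 higher and 29 lower. Within the early stage the largest differences were Tns4 (3.63), the transcytosis receptor Pigr (3.63) and the GABA receptor subunit Gabrp (3.42), and, downward, the uncertain Kcnma1 probe set (-4.86), the cytokine Il24 (-3.96) and the steroid dehydrogenase Akr1c18 (-3.36). Il24 measured 9.77 and 8.93 in P3 and 5.70 and 6.22 in P4, against 9.26 and 8.59 in P1 and 5.99 and 3.95 in P2, so that it was high in 1 passage of each stage. Within the late stage the differences were led by Lncenc1, a long non-coding RNA, at 10.52 and 9.97 in P4 and 6.19 and 6.75 in P3, followed by the heparan sulfate proteoglycan Gpc4 (2.47) and the cortisone reductase Hsd11b1 (2.43). At the low end were Slc38a1, given above, the protease Klk6 (-2.85) and the lipid-anchor deacylase Pgap1 (-2.18). Leaving out 1 array brought the counts to 1 to 41 genes within the early and 2 to 26 within the late stage.

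For many genes the late minus early difference on brain was unlike that on other tissues. For bone marrow and lung, P3 and P4 were set against P1 and P2 with 1 array each, and the late minus early difference on brain less the mean of theirs was tested. It was above 0 for 292 genes (4.00%) and below 0 for 402 genes (5.51%). Timp3 differed by 4.60 on brain, -1.02 on bone marrow and -0.65 on lung, a difference between tissues of 5.44 (SE 0.32, adjusted p = 6.75e-05). Gpx2 differed by -5.77, 0.32 and 0.51, a difference between tissues of -6.18 (adjusted p = 1.07e-05). The difference between tissues was 4.58 for Col8a1 and 4.16 for Lgals1, and -5.20 for Tmem47 and -4.90 for Kit. Lncenc1 differed by 2.84 on brain and by -1.51 and -0.91 on bone marrow and lung. By list, 10 of 21 ion transport genes and 8 of 24 ATF4 genes were lower on brain by this test. In the other direction, 8 of 38 mitosis genes and 6 of 12 antigen presentation genes were higher. Of the 27 genes of the study 16 were lower, a direction that their choice as genes raised at P1 on brain favours. The fit gives each lone array the spread found within the pairs. Against bone marrow alone 117 genes were higher and 105 lower, and against lung alone 150 and 278.

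**Figure D4:**
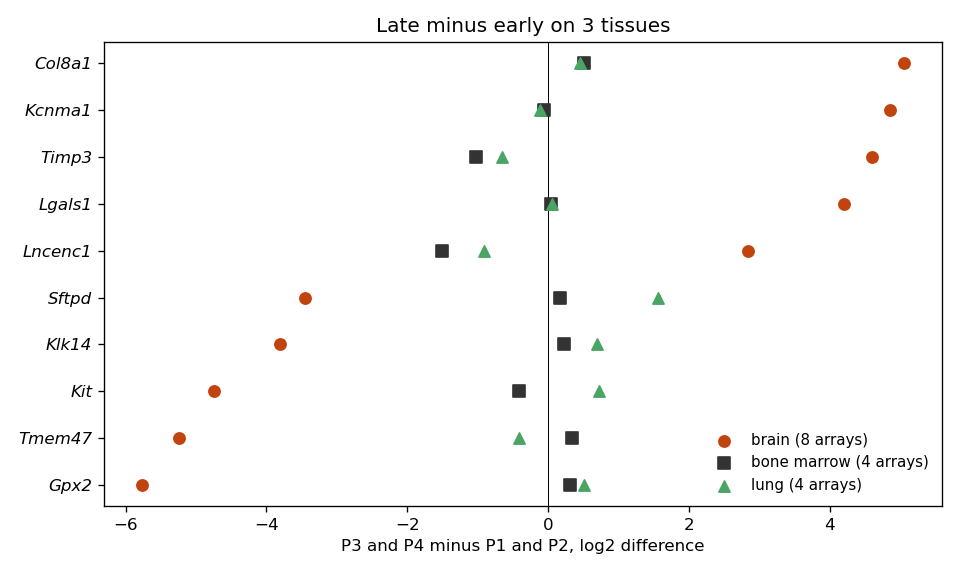
Late minus early log2 difference (P3 and P4 minus P1 and P2) on brain, bone marrow and lung for the 5 highest and 5 lowest genes of the test between tissues. Timp3 is at 4.60 on brain and under 0 on both other tissues, and Gpx2 is at -5.77 on brain and over 0 on both.

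The position of parental cells between the stages was then described. The parental mean was nearer to the late than to the early mean for 691 of 797 higher genes (86.7%) and for 744 of 1214 lower genes (61.3%), against 79.1% of all genes with a positive and 43.0% of those with a negative difference. For the lower genes the share was 73.8% with equal array medians and 47.5% without the first parental array. Among the 10 highest and 10 lowest genes, parental cells were nearer the late mean for 7 and 9, the exceptions being Kcnma1, Dynap, Rbp7 and Slc1a1. The cells of the second brain experiment, at P1, were nearer the late mean of the first for 8 and 9 of these genes, although they had had 1 passage. At its P2 they were so for 8 and 10, and the bone marrow, lung and breast arrays were so for 8 to 10 and 9 to 10. Over all called genes, the P1 array of the second experiment was nearer the late mean for 69.9% of the higher and 47.3% of the lower genes. These were the lowest shares among the 12 groups set beside the brain arrays. For the same array, the shares were 62.5% of all genes with a positive and 40.2% of those with a negative difference. These levels have no test, and only the parental cells have 2 arrays.

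Finally, genes that moved were unevenly spread over chromosomes. Relative to the other genes of each array, the median gene of chromosome 4 differed by 0.63 between late and early arrays, with 226 of 446 genes higher (50.7%) and 7 lower. Chromosome 14 differed by 0.44, with 85 of 246 higher and 11 lower. Chromosomes 3, 12, 19 and 15 differed by 0.25, 0.22, 0.20 and 0.17, and chromosomes 13 and 1 by -0.21 and -0.16, with 91 of 265 and 111 of 412 genes lower. The chromosome 4 median of early cells was 0.56 (P1) and 0.53 (P2) units under that of parental cells, against 0.09 (P3) and 0.08 (P4) over it in late cells. All 4 late arrays were over all 4 early arrays on chromosomes 4 and 14, and also on chromosomes 3, 12, 15 and 19. They were under all 4 early arrays on several others, among them chromosomes 1 and 13. Cdc20, Cdca8, Ccne2, Errfi1, Jun, Rbp7 and Tnc lie on chromosome 4, as do Atp6v0b, Klf4 and Epha2. Plau, Vcl, Dnajc3, Slc7a7 and Tnfrsf10b lie on chromosome 14, as do Gjb2 and Sftpd, which were lower in late cells. With the median of each chromosome subtracted on each array, 714 genes were higher and 853 lower, and the mitosis list had 25 higher of 38. The calls of Atp6v0b, Klf4 and Epha2 were lost with this subtraction.

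**Figure D5:**
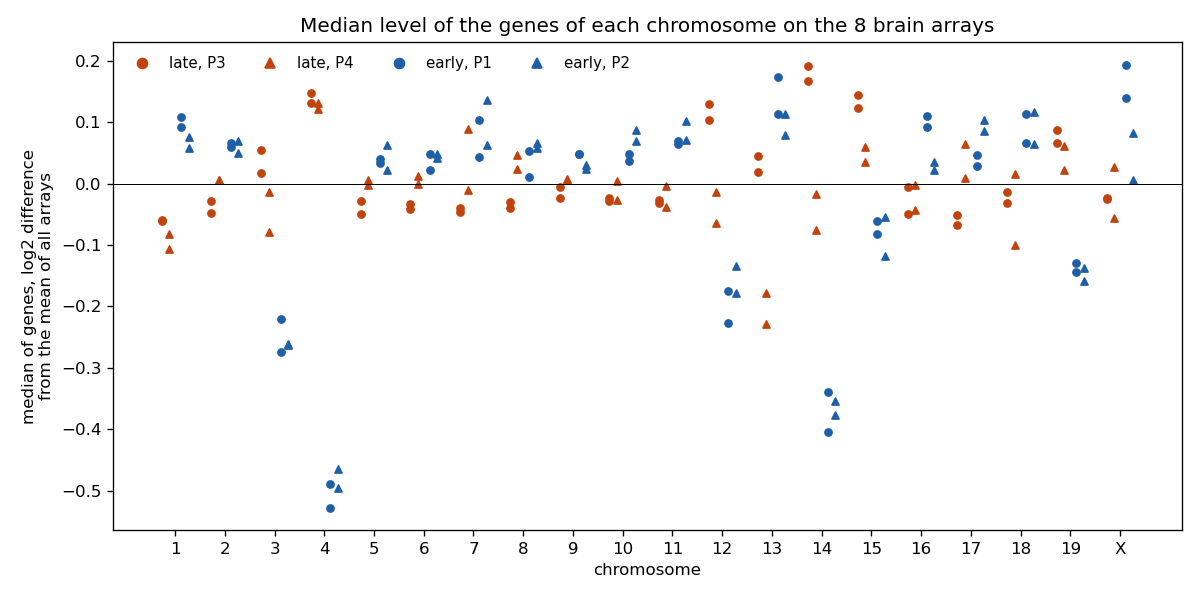
Median log2 level of the genes of each chromosome on each of the 8 brain arrays, relative to the array median and to the mean of all arrays. On chromosome 4 the 4 late arrays sit at 0.121 to 0.147 and the 4 early arrays at -0.528 to -0.465. Late arrays also lie over early arrays on chromosomes 3, 12, 14, 15 and 19.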

How the data were processed

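The deposited values are log2 levels per probe set on Affymetrix Mouse Gene 1.0 ST arrays, which the authors made with RMA (background correction, quantile normalisation and median polish) in Expression Console. They were used without further scaling. Of 34760 probe sets, 21640 carry 1 gene symbol in the platform annotation, 1321 several and 11799 none, and 21553 gene identifiers were found in the RefSeq table of GRCm38.p6, used for names, chromosomes and promoters. A gene was represented by its brightest probe set on average, a choice that arose for 954 of 19937 genes. The study removed dim probe sets by control probes not used here, so the same number, 10522, was kept by the largest group mean (lowest 7.33). The number of arrays, and not a read depth, limits the precision.

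Groups were taken from the array labels. With limma 3.58.1 in R 4.3.3, 1 mean for each of 16 groups was fitted to all 21 arrays (5 residual degrees of freedom, prior 3.9). Late against early is the mean of P3 and P4 less that of P1 and P2, and genes were called at a Benjamini-Hochberg adjusted p under 0.05 over all kept probe sets. The fit was tested on simulated data. Differences between the second and first arrays of the brain passages correlated at 0.118 to 0.406 among all pairs of passages. The main fit held no term for a pairing of first and second arrays. A replicate block, which takes them as paired, was run as an alternative only.

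The comparison and the gene lists were chosen with earlier results of these data known. The text names the 10 highest and 10 lowest called genes with separate stages, from each list the 2 called genes of smallest p in each direction, the extremes of the other contrasts, Erbb2 and the brightest markers over the limit. Other called list members were named after their values were seen. Alternatives were the filter, the scaling, the variance model, the choice of probe set, the threshold, the unit of replication, the pairing, subtraction of chromosome medians, and leaving out arrays or passages. First or second arrays alone, lists without single passages, and the motif searches for the ATF4 and antigen presentation lists were chosen after seeing the data. Lists had no set test. Marker lists of cell types were read on all probe sets. Enrichment of annotation terms and comparisons with human tumours were not analysed here.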

Additional observations from a re-analysis of the deposited data

Results flagged for a closer look

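On 7 of 92 named genes, each read at 2 stages, 1 of the 4 arrays of a stage lay far from the other 3. For 4 independent values chance alone gives such a gap in about 1 of 20 groups. The 4 arrays of a stage are 2 related cultures of each of 2 passages, so that this rate cannot be applied to the number found. Among late arrays these were P3 replicate 2 for Kit (5.256, others 4.651 to 4.698) and Ifi35 (6.907, others 7.643 to 7.701), and P3 replicate 1 for Gsta3 (4.882, others 5.536 to 5.666). Among early arrays they were P1 replicate 1 for Wfdc2 (10.58, others 10.16 to 10.22), P1 replicate 2 for Oasl2 (4.421, others 5.325 to 5.421), P2 replicate 1 for Cldn3 (10.67, others 10.44 to 10.46) and P2 replicate 2 for Gja1 (8.338, others 8.689 to 8.75). The cause was not tested.

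For 10 genes the late minus early difference on brain stood furthest from that on bone marrow and lung by the test of the difference itself, with lone arrays on the other tissues. It was above theirs by 5.436 for Timp3 (adjusted p = 6.75e-05), 4.938 for the uncertain Kcnma1 probe set (0.00161), 4.576 for Col8a1, 4.159 for Lgals1 and 4.053 for Lncenc1. It was under theirs, at -6.183 for Gpx2 (adjusted p = 1.07e-05), -5.201 for Tmem47, -4.905 for Kit, -4.318 for Sftpd and -4.263 for Klk14.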

How the results depend on the processing

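Counts of late against early calls are given as higher and lower, with 797 and 1214 in the main fit. They were 342 and 490 with no filter, 624 and 884 with the 7000 brightest probe sets, 1061 and 1087 with equal array medians, 1035 and 1104 with cyclic loess, 231 and 318 with a 2-fold limit, 463 and 689 with stage means on the 8 brain arrays, 266 and 346 with passage as a random block (correlation 0.295), 55 and 57 with passage means, 395 and 476 without P2, 478 and 927 without P3, 84 and 69 on first arrays alone and 7 and 8 on second arrays alone. Leaving out 1 array gave 502 to 669 higher and 708 to 1290 lower, the lowest counts being those without P1 replicate 2 for higher and without P1 replicate 1 for lower genes. The replicate block gave 936 and 1467. At least 98.8% of the main calls kept their sign in every setting run. Several settings, such as the filter and the unit of replication, leave the difference itself unchanged. The others reuse the same arrays, so that this share is no independent check.

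For brain less the other tissues (292 and 402), the counts were 52 and 68 with no filter, 450 and 390 with equal medians (53.6% higher, against 42.1%), 445 and 386 with cyclic loess, 117 and 105 against bone marrow, 150 and 278 against lung, and 159 to 237 and 205 to 461 without 1 array. P2 against P1 (137) gave 0 genes with no filter, 234 with equal medians, 210 with cyclic loess and 1 to 41 without 1 array. P4 against P3 (46) gave 2 with no filter, 91 with cyclic loess and 2 to 26 without 1 array. The parental share for higher genes (86.7%) was 79.8% with equal medians, 79.2% with cyclic loess and 80.0% to 86.4% without 1 parental array. For lower genes (61.3%) it was 73.8%, 75.5%, and 47.5% to 72.4%, and 73.3% with a 2-fold limit.

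Signs turned without P2 for Vegfa (0.059), Gadd45a (0.27) and the medians of the lists of amino acid carriers (0.10), DNA replication (-0.23), cholesterol (-0.24) and iron (0.060). The DNA replication median also turned without P2 replicate 1 (-0.016), without P3 replicate 1 (-0.036) and on second arrays alone (-0.11), the cholesterol median without P4 replicate 2 (-0.049), and the iron median with chromosome medians subtracted (0.057) and without P3 (0.041). The uncalled Erbb2 turned with equal medians (0.021), with chromosome medians subtracted (0.13), within a range of -0.19 to 0.085 when 1 array was left out, without P2 (0.16), without P3 (0.155) and on first arrays alone (0.12). The stricter filter turned the medians of the mesenchymal (0.074) and protease lists (-0.10), and the respiratory chain median turned with equal medians (0.0053), with chromosome medians subtracted (0.063) and without P3 (0.0098). Of 2465 pairs of a named gene and a setting, 2101 stayed on the same side of the threshold, 356 fell short of it and 8 changed sign. The causes were not tested.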
